A study of Mus musculus with 12 samples.

Results

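Human AHR and wild type mouse hepatocytes were compared in the ligand-activated state, after TCDD in both. The comparison used 6 of the 12 arrays of the series, namely the 3 labelled as human AHR cells given TCDD and the 3 labelled as C57BL6/J cells given TCDD. TCDD is a dioxin that activates the aryl hydrocarbon receptor (AHR), and primary hepatocytes are liver cells taken into culture straight from a mouse. Per the labels, the cells were cultured for 48 h in a serum-free hepatocyte medium holding DMSO and dexamethasone, then given 10 nM TCDD or DMSO (vehicle) for 6 h.

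Wild type cells came from C57BL6/J mice and carried the mouse receptor. Human AHR cells came from mice of a B6.Cg strain that combines the conditional Ahr allele Ahrtm3.1Bra, Cre under the Alb promoter (Alb-cre) and human AHR under the Ttr promoter (Ttr-AHR). Both promoters are active in hepatocytes, so other cells of the liver may keep the mouse gene. The design text gives 1 mouse an array. The remaining 6 arrays, 3 of each genotype under vehicle, served as side values.

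AHR waits in the cytosol in a complex with chaperones. A bound ligand sends it to the nucleus, where it pairs with ARNT and binds DNA at elements whose core reads GCGTG. In liver its classical targets are the cytochrome P450 genes Cyp1a1 and Cyp1a2, whose enzymes oxidise aromatic compounds, and Tiparp and Ahrr, which encode proteins that restrain the receptor. The human receptor is known to bind TCDD less tightly than the receptor of C57BL6/J mice.

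Signals are linear intensities after each array was brought to a trimmed mean of 150. The 3 wild type TCDD arrays had been deposited at a trimmed mean of 500 and the other arrays at 150, so under TCDD the genotype and the scale of deposit cannot be told apart, beyond what the rescaling removes. After rescaling, the array medians of all 12 arrays lay between 16.5 and 23.5, and the Gapdh 3′ to 5′ ratio, a measure of RNA integrity, between 0.798 and 0.841. Under TCDD, human AHR arrays correlated with each other across genes at 0.982 to 0.984, wild type arrays at 0.958 to 0.976, and arrays of different genotype at 0.969 to 0.985. Alb read 12310, 15350 and 15400 in human AHR and 13410, 12170 and 16070 in wild type TCDD arrays, and 10 of the 12 measured hepatocyte markers had a mean of at least 50 in one of the TCDD groups, Ass1 and Pck1 being dimmer. The markers summed to 50400 to 60100 and 50700 to 63100. Wild type replicate 2 stood apart under both treatments. Its signal of Xist, the noncoding RNA of the inactive X chromosome, was 2952 under TCDD against 11.7 to 28.7 in the other 5 TCDD arrays, and Eif2s3y, a Y-linked gene, read 0.42 there against 453 to 687. That is a female pattern in wild type replicate 2 and a male pattern in the other 5 arrays. For several genes below in which it stood out, the log2 difference without it is given. For others, among them Slc16a3, Cyp2c37 and Pole2, it is not given. Arrays give no counts, and their number limits the precision.

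Few genes differed between the ligand-activated states beyond the spread of the arrays. Of 18193 genes, 1 passed the threshold (limma with Benjamini-Hochberg adjustment, adjusted p under 0.05), which is 0.0055%. It was Adi1, and it was lower in human AHR cells. In the opposite direction 0 genes passed. At an unadjusted p under 0.05 there were 295 genes higher in human AHR cells (1.62%) and 457 lower (2.51%), together 752 (4.13%), against 909.7 that a flat distribution of p values would give. The 3 arrays of one genotype lay outside the range of the other for 588 genes on the higher side (3.23%) and 888 on the lower side (4.88%), together 1476 (8.11%). Among the 8940 genes with a mean signal of at least 50 in one of the groups, these shares were 3.02% and 2.86%. The median log2 difference (human AHR minus wild type, used throughout) was -0.01, with quartiles at -0.16 and 0.12, and the median standard error of a gene was 0.22. In all, 50 genes combined an unadjusted p under 0.05 with a difference beyond a factor of 2 (a log2 difference of 1 on the scale with the offset of 16).

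Adi1 encodes acireductone dioxygenase, an enzyme that recycles the sulfur of methionine. Its signal was 286, 220 and 239 in the 3 human AHR arrays and 1098, 1020 and 1459 in the 3 wild type arrays under TCDD. The highest human AHR array was thus far below the lowest wild type array. The group means were 248 ± 34.1 and 1192 ± 234 (SD, n = 3), a log2 difference of -2.18 (standard error 0.17, 95% confidence interval -2.55 to -1.82, limma adjusted p = 0.000142), or 4.54-fold lower. Adi1 was lower in 3 of 3 human AHR arrays under vehicle too, at 246, 344 and 327 against 1137, 1044 and 935 (log2 difference -1.72, adjusted p = 0.00245). The difference between the treatments was -0.46 (limma adjusted p = 0.999), so no dependence on TCDD was shown.

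The probe sets of Adi1 did not move together. One with means of 42.9 in human AHR and 999 in wild type TCDD arrays differed by -4.11, while the remaining one stood at 714 and 496, a log2 difference of 0.50 in the opposite direction. The latter read 882, 816 and 444 in human AHR and 672, 339 and 478 in wild type arrays, and these overlap. The call therefore holds for 2 of the 3 probe sets of the gene, and the transcripts each of them reads were not analysed here. Over 25 alternative settings the Adi1 difference lay between -2.29 and -1.93 and passed in each.

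The 9 genes that followed Adi1 on the lower side, ranked by p among genes whose arrays did not overlap, missed the threshold. Eif4e2, which encodes a cap-binding protein that represses translation, read 707, 653 and 729 in human AHR and 1429, 1146 and 1225 in wild type TCDD arrays (log2 difference -0.84, standard error 0.13, adjusted p = 0.134). Atg16l1, needed to build autophagosomes, read 239, 284 and 242 against 430, 424 and 460 (log2 difference -0.75, standard error 0.12, adjusted p = 0.152). In both genes the human AHR arrays were tightly grouped, at 0.557 and 0.596 of the wild type level with the offset included. Their vehicle values were nearly the same, with log2 differences of -0.88 for Eif4e2 and -0.70 for Atg16l1. Tmem18, a membrane protein of the nuclear envelope, read 41.0, 103 and 118 against 336, 362 and 334 (log2 difference -1.89, standard error 0.38, adjusted p = 0.462). Dtd2, which clears wrongly charged amino acids from transfer RNA, read 27.4, 24.7 and 34.9 against 92.2, 96.6 and 114 (log2 difference -1.38, standard error 0.29, adjusted p = 0.507). Dgkd, a diacylglycerol kinase, stood at -0.71.

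The other 4 genes of this rank were Oat, Cyp2c37, Sesn3 and H2bc22. Oat, the mitochondrial enzyme that converts ornithine, read 757, 631 and 589 in human AHR and 950, 1078 and 1303 in wild type TCDD arrays (log2 difference -0.74, adjusted p = 0.462). Cyp2c37, a liver P450, read 372, 359 and 366 against 802, 536 and 888 (log2 difference -0.96, adjusted p = 0.507). The human AHR arrays of Cyp2c37 differed little among themselves, and the spread lay in the wild type arrays. Sesn3, a stress-responsive sestrin, stood at -0.70, with vehicle at -0.29. A second probe set of Sesn3, with means of 264 and 342, gave only -0.34 and its arrays overlapped. H2bc22, a histone gene, read 15.3, 87.7 and 38.5 against 211, 142 and 217 (log2 difference -1.86, adjusted p = 0.462), and its vehicle arrays overlapped.

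Several of the lower genes lie near each other in the genome. Adi1 and Tmem18 are on chromosome 12, which also carries Ahr, 37 and 29 protein-coding genes from it on one side, and Dtd2 is 36 genes from Ahr on the other side. Of the 120 measured genes around Ahr, 60 on each side, 62 had a mean of at least 50. Among these, 7 were lower without overlap (11.3%, against 2.86% over all genes) and 3 were higher (4.84%, against 3.02%). The lower ones were Adi1, Tmem18, Acp1, G2e3, Heatr5a, Dtd2 and Arhgap5, and all but G2e3 were lower without overlap under vehicle as well. Heatr5a read 106, 144 and 110 in human AHR and 251, 185 and 162 in wild type TCDD arrays (log2 difference -0.65, with -0.80 under vehicle). Arhgap5 read 436, 395 and 344 against 552, 584 and 517 (log2 difference -0.48, with -0.54 under vehicle). Acp1, a phosphatase gene near Tmem18, differed by only -0.20. The 3 higher genes, Bcap29, Sypl and Zfp277, lie closer to Ahr than the 7 lower ones, and their differences were 0.22, 0.20 and 0.27.

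A second run of lower genes was on chromosome 1. From Eif4e2 to Usp40 the annotation gives 12 measured genes in a row, of which 5 had a mean of at least 50, namely Eif4e2, Gigyf2, Atg16l1, Dgkd and Usp40. All 5 were lower in human AHR arrays without overlap, under TCDD and under vehicle, with a median log2 difference of -0.78 under TCDD. Gigyf2, whose product works together with that of Eif4e2 in repressing translation, read 105, 108 and 86.7 in human AHR and 151, 191 and 207 in wild type TCDD arrays. Usp40, a deubiquitinase, read 71.9, 44.9 and 78.7 against 121, 263 and 111. The highest of these was wild type replicate 2, and the value without it was not computed. Ecel1, 4 measured genes before Eif4e2, went the other way at 113, 49.9 and 53.9 against 21.2, 44.6 and 4.32, and it did not do so under vehicle (log2 difference -0.27). Both windows were drawn after the values had been seen, and neither was tested.

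**Figure D1:**
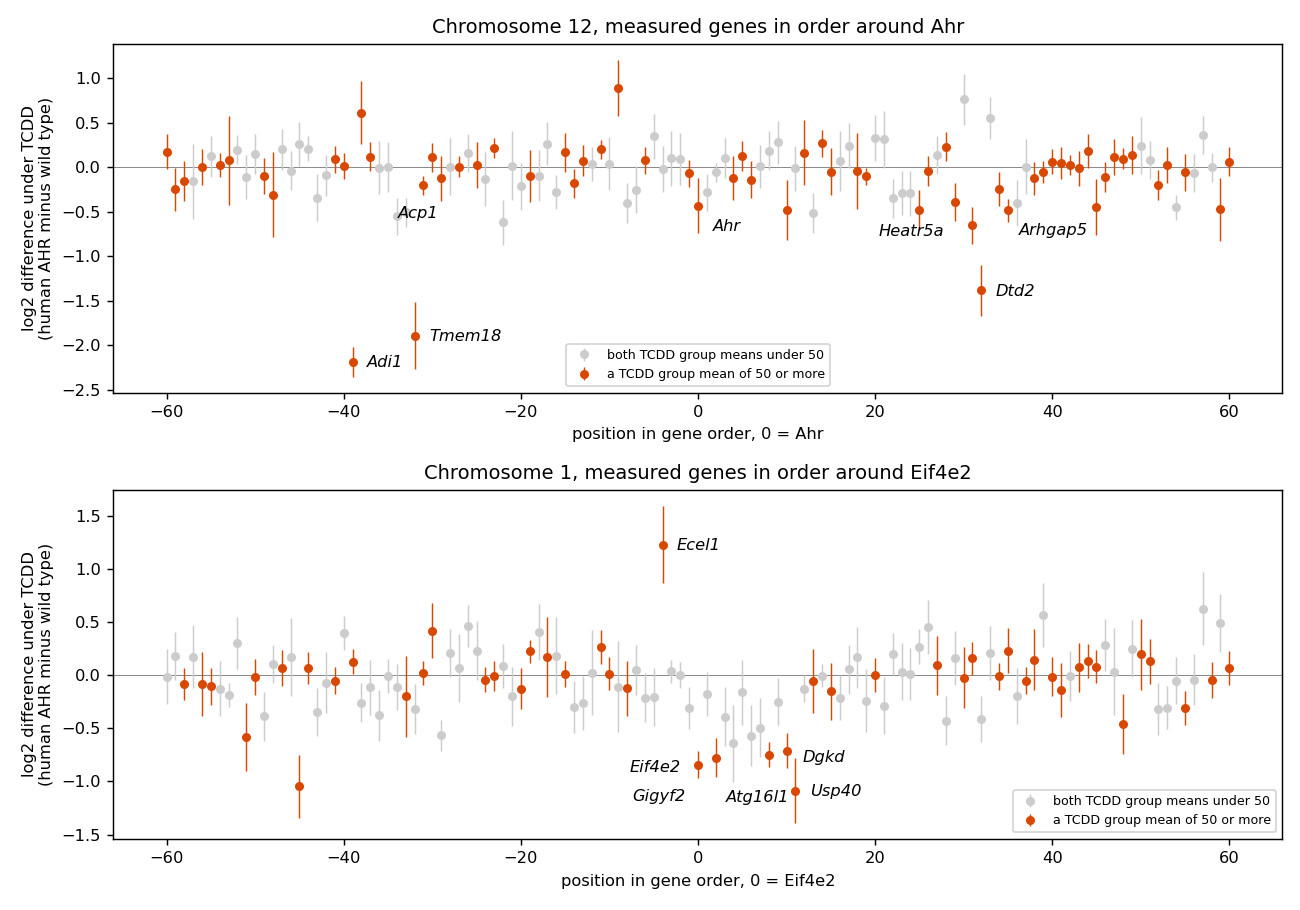
Log2 difference under TCDD (human AHR minus wild type, bars are standard errors) of measured genes in their order on chromosome 12 around Ahr and on chromosome 1 around Eif4e2, with 60 genes on each side and genes of mean 50 or more in orange. Adi1 at -2.18, Tmem18 at -1.89 and Dtd2 at -1.38 stand below their neighbours on chromosome 12, and the orange genes from Eif4e2 to Usp40 on chromosome 1 all lie below 0.

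Among the AHR targets, Cyp1a1, Cyp1a2, Tiparp and Slc46a3 were higher in human AHR cells without overlap, Cyp1a1 and Cyp1a2 by the widest margin, and 0 targets passed the adjusted threshold. The promoters of 3 of them are shown because these genes are classical targets whose arrays did not overlap under TCDD. They run from 250 bases before to 50 after the start in RefSeq (GRCm38.p6), 5′ to 3′ on the strand of the gene, with the AHR core motif GCGTG or its reverse complement CACGC in capitals. Cyp1a1 lies at chr9:57697363-57697662 on the plus strand, Cyp1a2 at chr9:57683606-57683905 on the minus strand and Tiparp at chr3:65528197-65528496 on the plus strand.
Cyp1a1: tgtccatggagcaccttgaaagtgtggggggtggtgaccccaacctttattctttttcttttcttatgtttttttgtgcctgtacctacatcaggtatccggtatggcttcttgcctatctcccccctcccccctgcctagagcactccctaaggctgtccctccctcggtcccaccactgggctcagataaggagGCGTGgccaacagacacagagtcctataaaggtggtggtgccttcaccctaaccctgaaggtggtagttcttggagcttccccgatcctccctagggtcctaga
Cyp1a2: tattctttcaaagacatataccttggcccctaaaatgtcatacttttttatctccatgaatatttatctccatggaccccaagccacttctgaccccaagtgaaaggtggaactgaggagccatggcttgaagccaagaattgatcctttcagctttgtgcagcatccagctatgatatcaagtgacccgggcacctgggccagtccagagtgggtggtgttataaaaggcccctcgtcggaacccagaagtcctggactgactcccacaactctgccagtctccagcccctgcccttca
Tiparp: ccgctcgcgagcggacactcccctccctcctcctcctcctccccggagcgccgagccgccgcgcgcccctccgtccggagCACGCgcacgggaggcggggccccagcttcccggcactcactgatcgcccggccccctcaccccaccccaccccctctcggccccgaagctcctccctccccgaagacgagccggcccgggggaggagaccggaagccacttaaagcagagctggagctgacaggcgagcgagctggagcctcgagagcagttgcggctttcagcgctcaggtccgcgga
These windows hold 1 match in Cyp1a1, 0 in Cyp1a2 and 1, as CACGC, in Tiparp. A match on either strand occurs in 10639 of 32851 RefSeq promoters of this length (32.4%), and further elements outside the window were not analysed here. Cyp1a1 and Cyp1a2 face away from each other on chromosome 9.

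Cyp1a1 read 6624, 4004 and 6939 in human AHR TCDD arrays and 125, 2518 and 64.9 in wild type TCDD arrays. All human AHR arrays were high, while in wild type replicate 2 alone was of that order and the other 2 were at most 125. Under vehicle it read 81.9, 63.0 and 60.5 in human AHR and 25.3, 24.0 and 18.5 in wild type cells. The log2 difference under TCDD was 4.22 (standard error 0.87, 95% confidence interval 2.34 to 6.10), or 18.6-fold, higher in 3 of 3 arrays, with a limma adjusted p of 0.507. Without wild type TCDD replicate 2 it was 5.74 (adjusted p = 3.25e-07), and without both wild type replicate 2 arrays it was 5.74 (adjusted p = 1.48e-06). The vehicle difference was 1.13 and the difference between the treatments 3.09 (limma adjusted p = 0.999), which passed only without wild type TCDD replicate 2, alone or with its vehicle counterpart. Within wild type TCDD, the array with the female pattern and the array with high Cyp1a1 are the same, so sex and array cannot be told apart.

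Cyp1a2 had another pattern. It read 3426, 3348 and 2848 in human AHR and 753, 898 and 1799 in wild type TCDD arrays, so the groups were apart, and the highest wild type array was here replicate 3. The log2 difference was 1.57 (standard error 0.27, 95% confidence interval 0.98 to 2.15, limma adjusted p = 0.218), or 2.96-fold, and without wild type TCDD replicate 3 it was 1.94 (adjusted p = 0.00381). Under vehicle Cyp1a2 was already at 3352, 3001 and 2572 in human AHR against 734, 429 and 611 in wild type arrays, and that difference of 2.33 passed (adjusted p = 0.0085). Human AHR arrays were thus at much the same level with and without TCDD. The genotype difference was 0.76 smaller under TCDD on the log2 scale (difference of contrasts -0.76, limma adjusted p = 0.999).

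Tiparp, the ADP-ribosyltransferase that is induced by AHR and restrains it, read 3538, 3609 and 3479 in human AHR and 2575, 3324 and 2534 in wild type TCDD arrays. The human AHR arrays were within a narrow band above all wild type arrays, and replicate 2 was again the highest wild type array. The log2 difference was only 0.34 (standard error 0.15, 95% confidence interval 0.01 to 0.67, limma adjusted p = 1). It was 0.47 without wild type replicate 2, and 0.42 and 0.20 by the other probe sets of the gene. Slc46a3, a lysosomal transporter, read 206, 181 and 196 against 122, 159 and 152 (log2 difference 0.40). It stood at 0.58 under vehicle, also without overlap.

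Of 24 AHR targets listed, 19 were measured. Cyp1a1, Cyp1a2, Slc46a3 and Tiparp were the 4 that lay higher without overlap and with an unadjusted p under 0.05, and 0 lay lower in that way. That is 4 of 19, beside 3.23% of all genes higher without overlap and 1.62% higher with such a p. The median log2 difference of the 19 genes was 0.18 against -0.01 over all genes, 13 lay above 0, and under vehicle the median was 0.29. Ugdh, which makes the sugar donor for glucuronidation, stood at 0.32, and Pmm1, a phosphomannomutase, at 0.22, both with overlapping arrays. The quinone reductase Nqo1 (0.17), its regulator Nfe2l2 (0.13) and the purine enzyme Xdh (-0.09) differed by less than their standard errors. Selenbp1, a selenium-binding protein, read 1504, 1111 and 2220 against 797, 3118 and 1150, and Tnfaip2 read 102, 49.2 and 174 against 46.3, 230 and 23.5. For both of these genes wild type replicate 2 was above every other TCDD array, as it was for Xdh (1143) and Nfe2l2 (4106). Without it the log2 differences went from 0.12 to 0.69 for Selenbp1, from 0.42 to 1.19 for Tnfaip2, from -0.09 to 0.16 for Xdh and from 0.13 to 0.41 for Nfe2l2. Inmt, an indole methyltransferase, had its lowest signal in that array, at 49.7 against 98.1 to 262 in the others, and its log2 difference went from 0.18 to -0.51 without it. Lpcat2, Fgf21, Ahrr, Aldh3a1, Cyp1b1, Cyp2s1 and Fmo2 had TCDD group means of at most 31.6 and differed by -0.33 to 0.35, without separation.

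**Figure D2:**
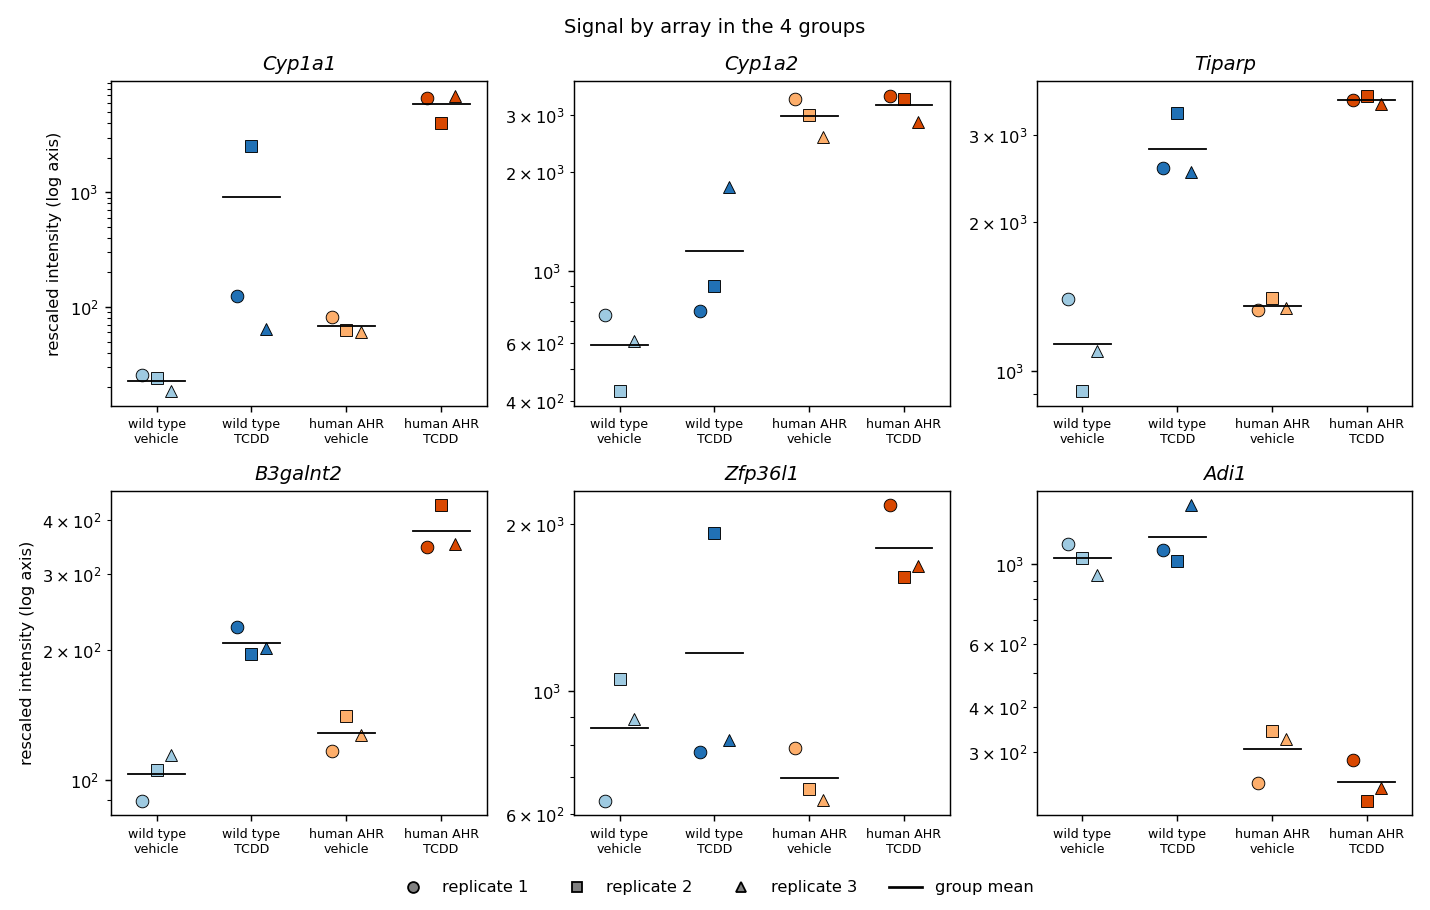
Rescaled intensity (log axis) on each array of 6 genes in the 4 groups, with replicate numbers as symbols and group means as lines. Under TCDD the human AHR arrays of Cyp1a1, Cyp1a2, Tiparp and B3galnt2 lie above all wild type arrays, those of Adi1 lie below them, and wild type replicate 2 (square) is among the human AHR values for Zfp36l1.

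Ahr itself lay lower in human AHR arrays, without overlap under vehicle but not under TCDD. Ahr read 225, 193 and 216 in human AHR and 243, 442 and 223 in wild type TCDD arrays, with wild type replicate 2 the highest and the other arrays close together. Its log2 difference was -0.43 (standard error 0.31, adjusted p = 1), and -0.14 without wild type replicate 2. Under vehicle it read 224, 193 and 236 against 261, 617 and 245 (log2 difference -0.62, adjusted p = 0.965). The sources used here do not say whether this probe set reads the stretch that Cre removes, so it is no check of the deletion. The transgene's own RNA was not analysed here. Arnt, the DNA-binding partner, stood at -0.18, and Ttr, whose promoter drives the human receptor, at 0.09. Of 20 genes listed for the AHR complex and its partners 17 were measured, with a median of -0.06. Of these 1, the tumour suppressor gene Rb1, had an unadjusted p under 0.05 (log2 difference -0.45, and 0.10 under vehicle). That is 5.88% of the measured genes of the list, near the 4.13% of all genes with such a p.

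A group of 4 TCDD-responsive genes named in earlier work on these data gave mixed values, and having been chosen on these arrays it is no independent evidence. B3galnt2, a glycosyltransferase that acts on dystroglycan, read 345, 432 and 351 in human AHR and 226, 196 and 202 in wild type TCDD arrays. Its groups were well apart (log2 difference 0.81, standard error 0.15, adjusted p = 0.422), a second probe set of similar brightness gave 0.69, and the difference exceeded that under vehicle by 0.53 (limma adjusted p = 0.999). Zfp36l1, which promotes the decay of messenger RNA, read 2163, 1603 and 1680 against 777, 1925 and 816. Without the high wild type array, replicate 2, its log2 difference went from 0.74 to 1.16 (adjusted p = 0.203). A second, dimmer probe set of Zfp36l1 read 593, 617 and 695 against 276.5, 512.5 and 158. By that probe set the groups did not overlap with all arrays kept (log2 difference 1.12, and 0.34 under vehicle). Rab30, a Golgi GTPase, read 1307, 1594 and 1722 against 990, 1334 and 707, and here too replicate 2 was the highest wild type array (log2 difference 0.64, and 0.86 without it). Rgs2, a regulator of G protein signalling, read 99.2, 45.6 and 60.4 against 79.2, 250 and 44.4, and its groups overlapped (log2 difference -0.50, and 0.11 without wild type replicate 2).

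The other genes that ranked highest on the higher side also missed the threshold. Nwd1 read 87.5, 72.0 and 63.8 in human AHR and 38.9, 23.8 and 24.4 in wild type TCDD arrays (log2 difference 1.01, adjusted p = 0.507). Tspan32, a tetraspanin of blood cells, read 66.9, 63.0 and 41.0 against 14.2, 15.03 and 16.1 (log2 difference 1.21, adjusted p = 0.619). In both genes the vehicle arrays of the genotypes overlapped, and the wild type TCDD arrays were the lowest group. Rnf39, a ring finger protein, read 130, 111 and 105 against 62.1, 56.4 and 44.6 (log2 difference 0.90). Pole2, a subunit of a replicative DNA polymerase, stood at 0.85, with a second, very dim probe set at -0.26. Lgals3, which encodes galectin-3, was the brightest of these, at 2195, 2196 and 2559 against 1703, 1354 and 1489 (log2 difference 0.61, adjusted p = 0.699). Slc16a3, the lactate exporter, read 187, 261 and 438 against 141, 47.0 and 136 (log2 difference 1.36), and Eng, a receptor of endothelial cells, read 55.3, 50.6 and 80.9 against 35.1, 23.5 and 16.7 (log2 difference 0.93).

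In the metabolic lists 0 genes passed the threshold, and the medians lay between -0.15 and 0.01, beside -0.01 for all genes. Conjugation enzymes, which attach glutathione, sulfate, glucuronic or acetyl groups to foreign compounds, had 31 of 34 listed genes measured, 24 of them below 0, with a median of -0.15 (-0.14 under vehicle). Gstk1, a mitochondrial glutathione transferase, read 421, 385 and 348 in human AHR and 502, 499 and 668 in wild type TCDD arrays, without overlap (log2 difference -0.51). Nat2, an N-acetyltransferase, was also apart, at 542, 578 and 545 against 765, 811 and 580 (log2 difference -0.35). Over the same list 1 gene had an unadjusted p under 0.05 on the higher side and 2 on the lower side, beside 1.62% and 2.51% of all genes. The 35 measured Cyp2, Cyp3 and Cyp4 enzymes had a median of -0.04, and Cyp2c37 was the 1 that lay lower with such a p. Cyp2b10, the standard target of the receptor CAR, read 580, 521 and 473 against 137, 1402 and 172, so its wild type arrays lay on both sides of the human AHR arrays, and it passed only without both wild type replicate 2 arrays.

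Among genes of lipid and glucose metabolism, 0 had an adjusted p under 0.05. Of 28 measured genes of fatty acid oxidation and PPARA targets, 19 lay below 0 (median -0.11), and 0 had an unadjusted p under 0.05. Cholesterol synthesis had 10 genes above and 10 below 0, with a median of 0.01, against -0.30 under vehicle. Lipogenesis had 12 above and 12 below. Among 23 genes of glucose handling Irs1, the adaptor of the insulin receptor, read 39.7, 39.8 and 45.8 in human AHR and 68.3, 142 and 111 in wild type TCDD arrays. These did not overlap (log2 difference -1.04, standard error 0.30, adjusted p = 0.964), whereas under vehicle the difference was 0.01, and the difference between the treatments was -1.05 (limma adjusted p = 0.999). Genes of bile acid synthesis and transport had 13 of 20 below 0 and a median of -0.06, and Hsd3b7, an enzyme of that pathway, stood at 0.32.

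Stress and housekeeping lists had medians between -0.05 and 0.14. HIF1 targets had 15 of 20 measured genes above 0 and a median of 0.14, with 0.21 under vehicle. Ankrd37 read 260, 252 and 245 in human AHR and 139, 172 and 168 in wild type TCDD arrays (log2 difference 0.62), and P4ha2, a collagen prolyl hydroxylase, stood at 0.34. Of 31 proteasome genes 26 lay above 0, with a median of 0.10. Of 17 measured genes of the ribosomal protein list 16 did so, with a median of 0.11. That list held the mitochondrial Mrpl23, matched in place of Rpl23. In neither list did a gene reach an unadjusted p under 0.05, and without both wild type replicate 2 arrays the proteasome median was -0.02. NRF2 targets had a median of 0.02, with Pgd of the pentose phosphate pathway at 0.26 and the cystine transporter Slc7a11 at 0.45, both without overlap. The unfolded protein response had a median of -0.05 against 0.27 under vehicle, and immediate early genes had 0.13 against 0.27. Of 25 liver transcription factors and nuclear receptors 18 lay below 0 (median -0.08), Onecut1 among them at -0.62 with a signal of at most 26.3. The oxidative phosphorylation, secreted protein, interferon, circadian and cell cycle lists had medians between -0.08 and 0.06. With all arrays brought to the same median, the median of all genes was 0.05, and those of the P450 (0.016), bile acid (0.004), unfolded protein response (0.013) and AHR complex (0.001) lists were above 0 as well.

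**Figure D3:**
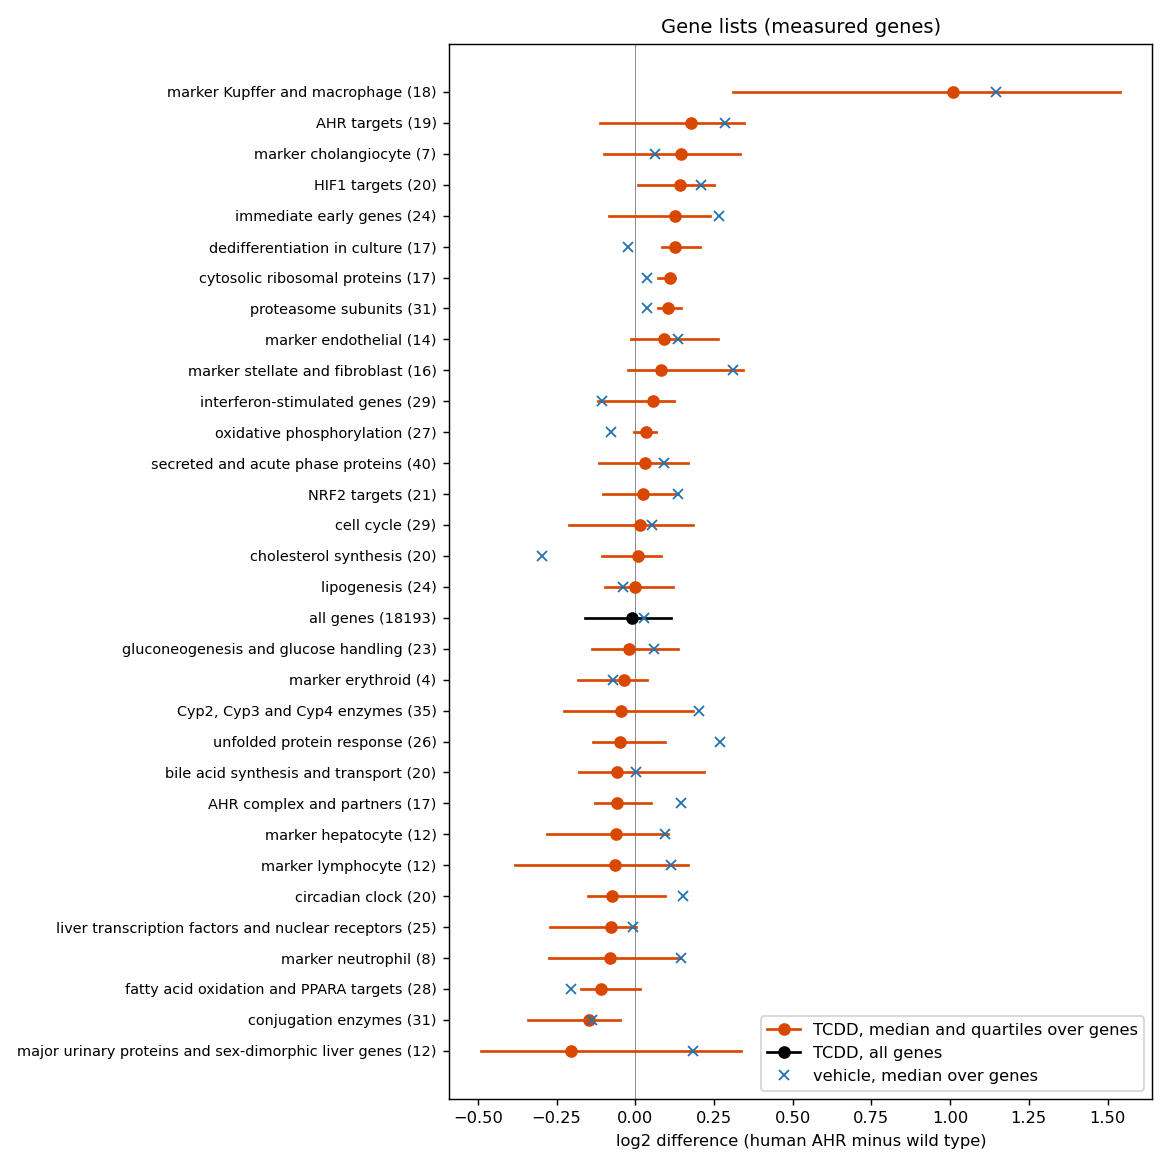
Median log2 difference (human AHR minus wild type) of the gene lists, without the sex chromosome transcripts and the earlier TCDD responders, under TCDD (dots, with lines from the lower to the upper quartile over genes) and under vehicle (crosses), with the number of measured genes in parentheses. The macrophage markers, at 1.01 under TCDD and 1.15 under vehicle, lie apart from the other lists drawn, and the AHR targets follow at 0.18.

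Most markers of Kupffer cells, the macrophages of the liver, lay higher in human AHR cells, mainly in replicates 2 and 3. All 18 listed markers were measured, 16 lay above 0, and the median was 1.01 under TCDD and 1.15 under vehicle. With an unadjusted p under 0.05, 7 were higher (background 1.62%), and 7 were higher without overlap (background 3.23%). In the other direction Aif1 was lower without overlap (background 4.88%), at a signal of at most 1.92 under TCDD and a log2 difference of -0.04. Of the 18 markers 0 passed the adjusted threshold. C1qb, a chain of complement C1q, read 23.5, 177 and 312 in human AHR and 7.23, 10.2 and 1.5 in wild type TCDD arrays (log2 difference 2.62, standard error 0.80, adjusted p = 1). C1qa read 10.8, 170 and 281 against 1.59, 1.95 and 2.46 (log2 difference 2.66). Replicates 2 and 3 of human AHR were high and replicate 1 was far lower, and the same numbers were high under vehicle. Under vehicle, wild type replicate 3 read 51.4 for C1qb and 25.8 for C1qa, above human AHR replicate 1 at 30.6 and 4.2. Cd5l, a protein secreted by macrophages, read 23.9, 72.1 and 119 against 2.67, 17.1 and 13.4, Vsig4 read 12.5, 43.7 and 57.1 against 6.21, 11.5 and 2.07, and Marco read 4.50, 23.4 and 122 against 1.17, 1.02 and 2.28. The sum over all 18 markers was 3005, 5634 and 6322 in human AHR and 3325, 3827 and 5154 in wild type TCDD arrays, which overlap. Cd68 and Cd14 made up most of it, at 1712 to 3183 and 1045 to 1596 in human AHR against 1763 to 4041 and 791 to 1380 in wild type. Without these 2 genes, a choice made after their values were seen, the sums were 248, 1134 and 1920 against 183, 199 and 208. Under vehicle these reduced sums were 204, 1295 and 2082 in human AHR against 105, 127 and 338 in wild type arrays, which overlap. Timd4, Fcgr1, Aif1 and Cd163 stayed under 50 on every array. Fewer cells of a type and less RNA in each cell cannot be told apart in bulk samples.

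The ranking of the human AHR arrays, with replicate 1 lowest and replicate 3 highest, held under TCDD for Slc16a3 too. Under vehicle it did not (378, 311 and 426). The same ranking held under TCDD for the hepatocyte gene Alb (12310, 15350 and 15400) and for Rab30 (1307, 1594 and 1722). For these it held under vehicle as well, at 11500, 13530 and 15590 for Alb and 413, 501 and 548 for Rab30. The ranking did not hold for Cyp1a1, Cyp1a2, B3galnt2 or Adi1. For Lgals3 replicate 1 (2195) was level with replicate 2 (2196), and for Eng and Tspan32 it was not the lowest of its group. The part of macrophage RNA in these differences was not tested. Of 14 endothelial markers 10 lay above 0 (median 0.09), and the sum was 338 to 484 in human AHR against 320 to 353 in wild type TCDD arrays. Vwf, Kdr, Tek, Stab1, Lyve1, Clec4g and Emcn stayed under 50 on every array. The 16 markers of stellate cells and fibroblasts had a median of 0.08 and sums of 749 to 1570 against 493 to 1160, with 11 of them under 50 throughout. Reln, a stellate cell marker, read 127, 81.3 and 129 against 38.3, 65.6 and 49.7 (log2 difference 0.93). Sparc, a matrix protein, was at most 38.1 (log2 difference 0.70). Cholangiocyte markers summed to 553 to 1160 against 631 to 701, and erythroid markers to 78.0 to 104 against 46.1 to 154. All 12 lymphocyte and all 8 neutrophil markers were under 50 on every array. Genes that rise as hepatocytes lose their identity in culture had 14 of 17 above 0 and a median of 0.13. The median was -0.02 under vehicle, and 0 under TCDD without wild type TCDD replicate 3. Lgals3 was the 1 gene with an unadjusted p under 0.05 (5.88%, beside 4.13% of all genes).

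**Figure D4:**
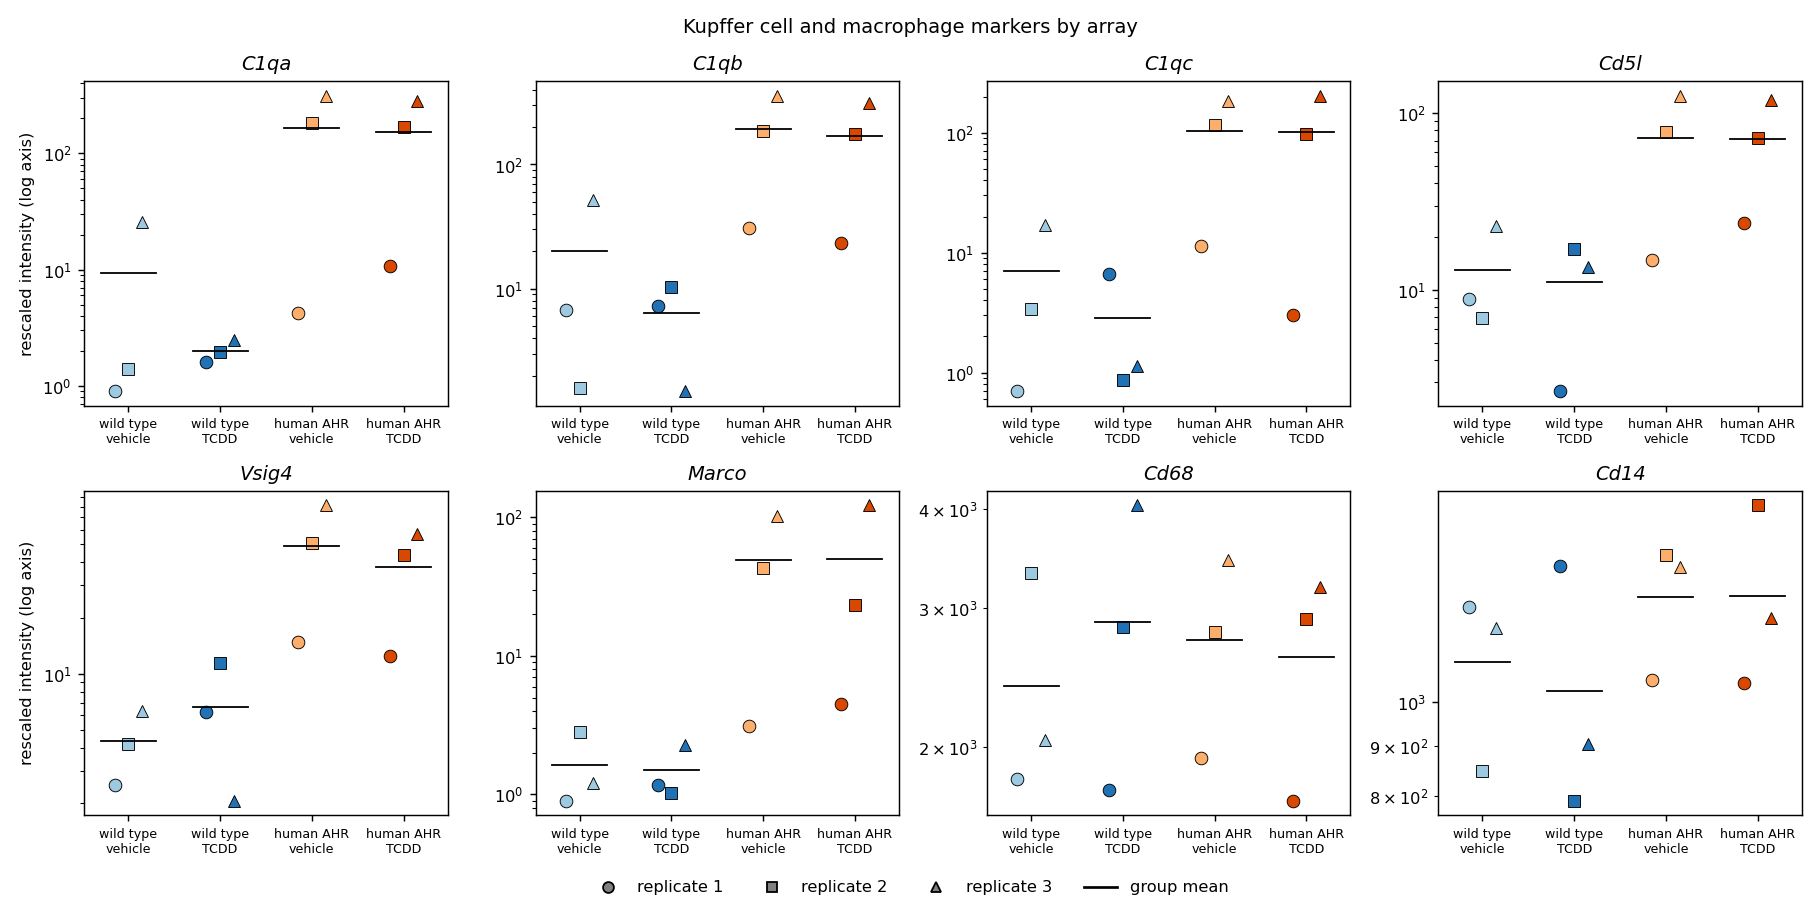
Rescaled intensity (log axis) on each array of 8 macrophage markers in the 4 groups, with replicate numbers as symbols and group means as lines. C1qa, C1qb, C1qc, Cd5l, Vsig4 and Marco are high in human AHR replicates 2 and 3 under both treatments, and Cd68 and Cd14 show no such separation.

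The vehicle arrays gave the genotype contrast in samples whose means do not enter the TCDD contrast, although all 12 arrays share the estimate of the spread. There 2 of 18193 genes passed (0.011%), Adi1 and Cyp1a2, with 775 at an unadjusted p under 0.05 (4.26%). Of the 256 bright genes (mean of at least 50) that were lower without overlap under TCDD, 41 were lower without overlap under vehicle, where 5% of bright genes were. Of the 270 higher ones 39 were higher under vehicle as well, where 6.26% were. In human AHR cells the vehicle and TCDD arrays of one number deviated together (r of 0.191 to 0.265). In wild type cells those of replicates 1 and 2 did so too (r of 0.25 and 0.508), and those of replicate 3 hardly (r of 0.049). Arrays of unlike number reached similar values, at 0.336 for human AHR TCDD replicate 2 with wild type TCDD replicate 3, so a pairing is not established. The shared genes are nonetheless not counted as an independent repeat. The test of the difference between the 2 contrasts called 0 genes in limma, with 573 at an unadjusted p under 0.05 (3.15%). Among the genes with such a p were Cyp1a1, B3galnt2, Zfp36l1, Tspan32, Rnf39, Eng and Irs1. Tspan32 stood at 1.21 under TCDD and 0.19 under vehicle, and Rnf39 at 0.90 and 0.15. In contrast Adi1, Eif4e2, Atg16l1, Tmem18 and Dtd2 had vehicle differences of -1.72, -0.88, -0.70, -2.51 and -1.32, of the same sign and similar size as under TCDD.

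**Figure D5:**
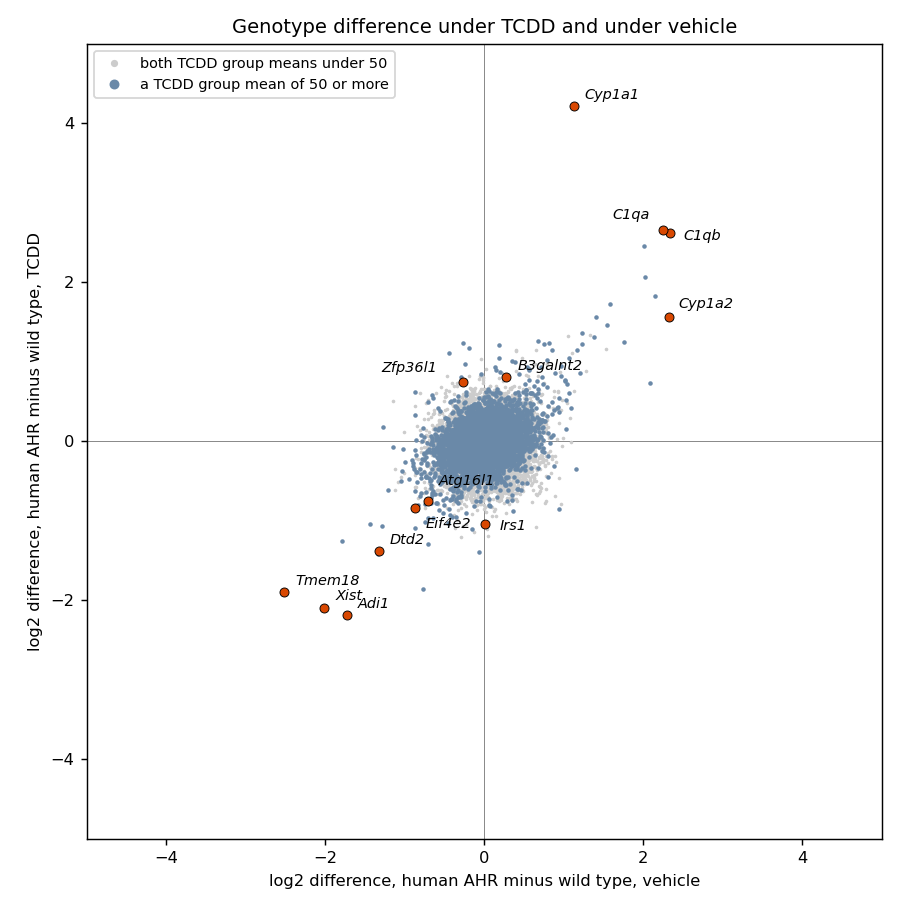
Log2 difference between genotypes under vehicle (horizontal axis) and under TCDD (vertical axis), 1 point a gene, with genes of mean 50 or more in blue and named genes in orange. Adi1 (-1.72 and -2.18) and Tmem18 (-2.51 and -1.89) are low on both axes, C1qa and C1qb are high on both, and Cyp1a1 is at 1.13 and 4.22.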

How the data were processed

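RNA was measured on 12 Affymetrix mouse arrays holding 45101 probe sets. Per the design text and the submitters' processing notes, the authors normalized the scans with PLIER-MM in Affymetrix Expression Console 1.1. The deposited intensities are linear, with a trimmed mean of 150 or 500 an array, which is a global scale rather than what PLIER yields, so the last step behind the values is unknown. Each array was rescaled to a 2% trimmed mean of 150. Of 45037 probe sets left without 64 controls, 34945 named 1 gene symbol, 932 named several and 9160 none. Of these 34945, symbols were updated through RefSeq (GRCm38.p6) identifiers, which matched 34741 probe sets. Where a gene had several probe sets, the one of highest mean signal stood for it, giving 18193 genes.

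Values were log2(intensity + 16), so differences of dim genes are understated. limma 3.58.1 in R 4.3.3 fitted 4 group means over 12 arrays (8 residual degrees of freedom) with an intensity trend. Tests were two-sided, with Benjamini-Hochberg adjustment over all genes, a threshold of 0.05 and 95% confidence intervals. The fit was tested on simulated data. The 33 gene lists held 730 entries, of which 654 were matched to a measured gene, and a list was described by its median and counts. Entries were matched by symbol or synonym, which wrongly put Mrpl23 in place of Rpl23 and Trh in place of Trf, a secreted protein. The members and lists were chosen with earlier results of these data known. Named genes were all called genes, the 10 a direction with the smallest p among non-overlapping groups with a mean of at least 50, the AHR targets, the 4 earlier responders, Ahr, Arnt, Ahrr, Ttr and Alb, sex chromosome transcripts, and the members with the smallest p of the other lists. Neighbours of Ahr and Eif4e2, Ecel1, Usp40, Cyp2b10 and further macrophage markers were named after their values were seen. Some items are not reported here. Same-numbered arrays of different genotype did not deviate together (r of 0.012, -0.323 and -0.16). Those of human AHR cells under vehicle and TCDD did (r of 0.239, 0.265 and 0.191), a possible pairing that comes from the values. Those of wild type cells did so in 2 of 3 numbers. Arrays of unlike number reached 0.336 between genotypes and 0.283 between wild type TCDD replicate 3 and wild type vehicle replicate 1, so these values do not establish a pairing. Alternatives covered the offset, scaling, a filter on dim genes, the fit, the probe sets, replicate terms and leaving out arrays. Figures were drawn with matplotlib 3.10.9.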

Additional observations from a re-analysis of the deposited data

How the results depend on the processing

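Adi1 passed under TCDD in each of the 25 alternative settings (log2 difference -2.29 to -1.93, adjusted p 1.88e-05 to 0.0191). The count of called genes was 1 under TCDD, 2 under vehicle and 0 for the difference. With array weights the first 2 counts went to 5 and 4, under TCDD adding Atg16l1, Cyp1a1, Cyp1a2 and Eif4e2. The vehicle count went to 4 with an offset of 50, and to 3 with arrays at the same median, adding Tmem18. With every probe set tested the TCDD count went to 2 (both of Adi1). Without both wild type replicate 2 arrays the counts were 3 under TCDD, 3 under vehicle (adding Cyp2b10) and 1 for the difference. With each array left out in turn the counts ran from 1 to 2 under TCDD, 1 to 3 under vehicle and 0 to 1 for the difference. With the replicate block they were 1, 3 and 0, and likewise 1, 3 and 0 with a random replicate block inside each genotype, where Eif4e2 joined under vehicle. The difference of contrasts could not be fitted on 6 arrays.

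The list medians with the same sign in all 25 settings included the AHR targets (0.02 to 0.36), the macrophage markers (0.55 to 1.48) and the conjugation enzymes (-0.30 to -0.003). Those of glucose handling, lipogenesis, cholesterol synthesis and the cell cycle changed sign in several. Small differences under TCDD also changed sign, and the cause was not tested. This happened with quantile normalization for Alb (-0.007), with array weights for Lpcat2 (0.003), Aldh3a1 (0.072), Cyp2s1 (0.10), Inmt (-0.27) and Alas2 (-0.18), and with the mean over probe sets for Nfe2l2 (-0.087), Cul4b (-0.017), Tubb6 (-0.035) and Ttr (-0.003). Without both wild type replicate 2 arrays it happened for Cyp2s1 (0.022), Xdh (0.16), Fmo2 (0.20), Inmt (-0.51), Rgs2 (0.11), Xist (0.042), Alas2 (-0.61), Ttr (-0.012) and Alb (-0.04). With each array left out in turn, the ranges that crossed 0 were -0.04 to 0.16 for Alb, -0.012 to 0.20 for Ttr, -0.51 to 0.57 for Inmt, -0.36 to 0.022 for Cyp2s1, -0.46 to 0.20 for Fmo2, -0.29 to 0.69 for Selenbp1, -0.34 to 0.16 for Xdh, -0.96 to 0.11 for Rgs2, -3.33 to 0.042 for Xist, -0.61 to 0.74 for Alas2, -0.61 to 0.024 for Fgf21, -0.13 to 1.19 for Tnfaip2, -0.12 to 0.40 for Nqo1 and -0.078 to 0.41 for Nfe2l2. Differences of genes under a signal of about 50 are compressed by the offset.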
